A study of Mus musculus with 10 samples.

Results

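Immediate early genes are the first genes that a cell transcribes after a growth factor, cytokine or stress signal reaches it, without the need for new protein. Their promoters are held ready by SRF with its ternary complex partners and by CREB, which are activated through MAP kinases and other kinases, and their short-lived mRNAs fall again soon after the signal ends. Many encode transcription factors, among them the FOS and JUN subunits of AP-1, the zinc finger proteins of the EGR family and the orphan nuclear receptors of the NR4A family. In tumors these genes are known to report growth factor signaling, hypoxia and inflammation, and they are also known to be induced when living tissue is handled or dissociated.

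In bulk RNA-seq counts, 10 members of this class were examined in subcutaneous (s.c.) Panc02 tumors. They were taken by name, as the rows whose Ensembl identifier maps to Fos, Fosb, Jun, Junb, Egr1, Egr2, Atf3, Ier2, Dusp1 or Nr4a1, a rule that uses no measured value, although the 10 names were chosen with earlier results of these data known. All 10 were found among the 37417 genes of the table, and all 10 were among the 15299 genes that passed the filter on low counts. The lowest count of any member in any tumor was 137, for Fosb.

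Panc02 is a mouse pancreatic cancer cell line. Its cells had been transduced with a doxycycline-inducible Cas9 and then with a guide to the cytidine deaminase gene Cda (sgCda) or with a nontargeting guide (sgNT), so both groups carried the nuclease and both were exposed to doxycycline in culture. They were injected into the flank of C57BL/6J mice that were labelled wild type and 12 weeks old, no treatment was listed, and whole tumors were collected on day 16. In each group 5 tumors were sequenced, with groups and replicate numbers given by the sample titles. The design text gives mice per group, but no label ties a tumor to a mouse, so p-values measure the spread between these samples. As the RNA came from whole tumors, cancer cells and host cells are averaged, and more cells of a type cannot be told apart from more RNA per cell. The interval between death of the mouse and lysis of the tissue is not given in the sources used here, and its part in the values was not tested.

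Libraries held 28051907 to 39484964 assigned counts. Reads outside annotated genes made up 10.3% to 18.4% of uniquely aligned reads and mitochondrial genes 3.47% to 5.82% of assigned counts, with the highest value of both in sgCda replicate 4. Markers of epithelial cancer cells (6 of 6 tested) summed to 590.5 to 922.8 CPM (the usual counts-per-million unit, with library sizes scaled by edgeR's TMM method) in sgNT and 568.0 to 1016 CPM in sgCda tumors, although Krt7 averaged below 1 CPM. The targeted gene Cda had a mean of 12.1 CPM (SD 1.76) among sgNT and of 9.77 CPM (SD 2.34) among sgCda tumors, with a log2 fold change of −0.30 (edgeR, adjusted p = 0.9996). The transcript level thus gave no check of the labels, and an edit in the DNA need not lower it.

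To show the DNA in front of these genes, the stretches upstream of RefSeq transcription start sites (GRCm38.p6) were read for 8 of the 10 members. Egr1 and Ier2 had no entry in the promoter table. The 5 stretches printed here are those of Fos and Junb, which had positive correlations with most other members, and of the members with the most copies of TGACG (Nr4a1), a CArG box (Egr2) and a whole CREB site (Dusp1). Capitals mark the letters TGACG on either strand (CGTCA on the other), which is one end of the CREB site TGACGTCA, the CArG box bound by SRF, and the EGR site GCGNGGGCG. Positions are counted backward from the start site at −1.
Fos, chr12:85473640-85473889, plus strand, −250 to −1: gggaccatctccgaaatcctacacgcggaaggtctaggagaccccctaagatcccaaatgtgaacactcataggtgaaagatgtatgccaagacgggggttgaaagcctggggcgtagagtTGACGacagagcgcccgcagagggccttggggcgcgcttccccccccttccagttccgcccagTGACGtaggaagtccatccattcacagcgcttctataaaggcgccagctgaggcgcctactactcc
Junb, chr8:84978749-84978998, minus strand, −250 to −1: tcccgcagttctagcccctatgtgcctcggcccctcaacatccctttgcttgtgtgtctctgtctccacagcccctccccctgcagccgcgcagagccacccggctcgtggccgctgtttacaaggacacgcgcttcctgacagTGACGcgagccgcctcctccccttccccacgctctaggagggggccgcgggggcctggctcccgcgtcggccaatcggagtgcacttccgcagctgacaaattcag
Nr4a1, chr15:101266596-101266845, plus strand, −250 to −1: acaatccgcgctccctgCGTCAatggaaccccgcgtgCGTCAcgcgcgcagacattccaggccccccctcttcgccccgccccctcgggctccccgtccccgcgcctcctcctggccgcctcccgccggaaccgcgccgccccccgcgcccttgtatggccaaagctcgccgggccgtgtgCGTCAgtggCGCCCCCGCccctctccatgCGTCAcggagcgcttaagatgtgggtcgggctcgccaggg
Egr2, chr10:67537789-67537818, plus strand, −80 to −51 of the third of its 5 start sites: tcctcagtCCATATATGGgcagcgaCGTCA
Dusp1, chr17:26508523-26508722, minus strand, −250 to −51: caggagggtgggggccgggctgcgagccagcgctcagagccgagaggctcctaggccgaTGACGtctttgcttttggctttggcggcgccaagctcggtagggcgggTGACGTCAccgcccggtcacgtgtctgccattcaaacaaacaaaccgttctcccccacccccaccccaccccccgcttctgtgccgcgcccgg

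The letters TGACG, on either strand, were present in the 250 bases upstream of at least 1 start site in 7 of the 8 members, Jun being the one without them, and in 17.8% of the 32851 upstream windows of the same length. Nr4a1 held them 4 times, the first at −233 and the last at −40. The whole palindrome TGACGTCA, which contains TGACG on both strands, was present in Dusp1 alone, at −143 to −136, and in 1.55% of all windows. A CArG box was present in Egr2 alone, against 1.47% of all windows. The EGR site was present in Fosb and Nr4a1, against 4.70%, and the AP-1 site TGANTCA in none of the 8, against 6.75%. A member was counted if any of its windows matched, and the 8 members had 12 windows, 5 of them of Egr2. A count of members is therefore not on the same footing as a share of windows. These matches describe letters in a window and say nothing of binding. Bases farther upstream than −250 were not read, so a site missing from a window may still be present in that promoter.

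Expression per kilobase of exon was compared first, since counts alone favor long transcripts. Levels are given as CPM per kilobase (RPKM), averaged over all 10 tumors with the SD. Jun (54.8 ± 6.44 RPKM) and Junb (54.3 ± 6.46 RPKM), the JUN subunits of AP-1, were at the top of the order, and Jun was the higher of them in 6 of 10 tumors, so they did not differ beyond their spread. Ier2, which encodes a small nuclear protein, followed at 22.9 ± 3.58 RPKM, below Junb in 10 of 10 tumors and with no overlap of their ranges. Egr1 came next at 14.6 ± 4.37 RPKM, and was below Ier2 in each of the 10 tumors. Dusp1 (11.3 ± 2.66 RPKM) and Atf3 (10.5 ± 2.36 RPKM) overlapped with each other and with Egr1. The lower end held Fos (6.43 ± 3.03 RPKM), Nr4a1 (4.36 ± 1.21 RPKM), Egr2 (2.69 ± 0.494 RPKM) and Fosb (0.990 ± 0.493 RPKM). Neighbors in this lower part also had overlapping ranges, although Egr2 was above Fosb in 10 of 10 tumors. The 2 highest genes share exonic bases with an opposite-strand gene (Jun with Junos over 232 bases, Junb with Prdx2 over 173 bases), as does Dusp1 with Ergic1 over 11 bases. The strand setting of the counting is not given in the sources used here, so those counts may hold or lack reads of the partner.

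**Figure D1:**
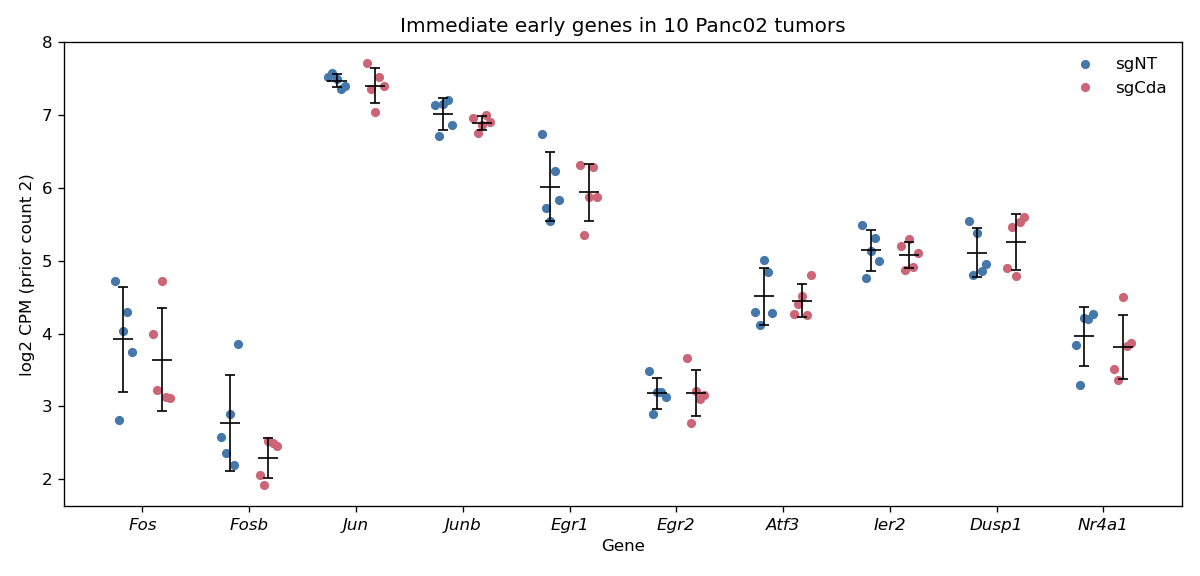
Level of each immediate early gene in every tumor, on the y axis as log2 CPM (prior count 2), with the 10 genes on the x axis, 1 point per tumor, and the mean and SD of each group of 5 as black bars. The sgNT (blue) and sgCda (red) points overlap for all 10 genes, and the widest vertical spread is that of Fos and Fosb.

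The AP-1 subunits of the FOS family are considered first. Fos (ENSMUSG00000021250, chromosome 12, 85473890 to 85477273, plus strand, 4 exons) encodes the partner that JUN proteins need for their most active dimer. In sgNT replicates 1 to 5 it stood at 26.2, 6.95, 16.3, 19.5 and 13.4 CPM. In sgCda replicates 1 to 5 it stood at 15.9, 9.33, 26.4, 8.71 and 8.61 CPM. The lowest tumor was therefore an sgNT tumor and the highest, by a narrow margin, an sgCda tumor, and the groups overlapped over nearly their whole range. The log2 fold change of sgCda over sgNT was −0.25 (SE 0.39, 95% CI −1.10 to 0.60, edgeR quasi-likelihood test, unadjusted p = 0.525, adjusted p = 0.9996). That value rested on single tumors, being −0.63 without sgCda replicate 3 and −0.025 without sgNT replicate 1.

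Fosb (ENSMUSG00000003545, chromosome 7, 19302696 to 19310051, minus strand) encodes a close relative of FOS. It had the largest log2 fold change of the 10 genes in absolute size. The sgNT tumors held 5.90, 5.09, 7.38, 4.52 and 14.5 CPM and the sgCda tumors 4.11, 3.73, 5.68, 5.56 and 5.41 CPM, in replicate order. Replicate 5 of sgNT stood far above the other 9 tumors, which lay between 3.73 and 7.38 CPM. For sgCda over sgNT the estimate was −0.61 on the log2 scale (SE 0.30, 95% CI −1.28 to 0.054, edgeR, unadjusted p = 0.0681, adjusted p = 0.9996). In percent this was −34.5 (95% CI −58.7 to 3.79). Single tumors moved the Fosb estimate both ways. Without sgNT replicate 5 it was −0.23 (edgeR, unadjusted p = 0.275), without sgNT replicate 4 −0.75 (edgeR, unadjusted p = 0.0282) and without sgNT replicate 2 −0.72 (edgeR, unadjusted p = 0.0422). With no filter on low counts it was −0.64 (edgeR, unadjusted p = 0.0463).

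The JUN family members varied less. Jun (ENSMUSG00000052684, chromosome 4, 95049034 to 95052222, minus strand, a single exon) encodes the founding AP-1 subunit, which can also pair with itself. The sgNT tumors held 183.6, 192.0, 180.0, 164.6 and 168.8 CPM and the sgCda tumors 209.4, 164.3, 132.0, 183.5 and 168.7 CPM. The sgCda tumors thus held both the highest and the lowest value of all 10. Its log2 fold change was −0.051 (95% CI −0.29 to 0.18, edgeR, adjusted p = 0.9996), and without sgCda replicate 3 it was 0.029.

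Junb (ENSMUSG00000052837, chromosome 8, 84974484 to 84978718, minus strand, a single exon) encodes a JUN protein that can temper the activity of JUN. It stood at 141.4, 104.8, 142.9, 147.9 and 117.1 CPM in sgNT tumors and at 124.2, 107.6, 116.6, 127.6 and 120.5 CPM in sgCda tumors. The 3 highest tumors were all sgNT, but the lowest was sgNT replicate 2. Its log2 fold change was −0.13 (95% CI −0.35 to 0.083, edgeR, unadjusted p = 0.202, adjusted p = 0.9996), and −0.21 without sgNT replicate 2 (edgeR, unadjusted p = 0.0316). Among the 10 genes this was the narrowest interval, from −21.5% to 5.89%.

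Atf3 (ENSMUSG00000026628, chromosome 1, 191170296 to 191218039, minus strand) encodes a stress-induced factor of the ATF family that dimerizes with JUN proteins and often represses. Its levels were 19.6, 17.3, 32.2, 28.7 and 19.4 CPM in sgNT and 19.2, 21.1, 22.8, 19.0 and 27.9 CPM in sgCda tumors. The values of both groups interleaved. For Atf3 the log2 fold change was −0.090 (95% CI −0.49 to 0.31, edgeR, adjusted p = 0.9996) and 0.053 without sgNT replicate 3, the tumor with the highest level.

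For the EGR family, the zinc finger factors that bind GC-rich promoters, the groups also overlapped. Egr1 (ENSMUSG00000038418, chromosome 18, 34859823 to 34864984, plus strand) stood at 107.2, 52.8, 46.7, 75.0 and 57.3 CPM in sgNT tumors and at 79.3, 40.7, 58.8, 77.8 and 58.9 CPM in sgCda tumors. The highest tumor was sgNT replicate 1 and the lowest sgCda replicate 2. Accordingly, the log2 fold change of −0.10 (95% CI −0.63 to 0.42, edgeR, adjusted p = 0.9996) turned to 0.12 without the former and to 0.021 without the latter.

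Egr2 (ENSMUSG00000037868, chromosome 10, 67535475 to 67542188, plus strand), which restrains T cell activation and is needed for myelination, was at 11.2, 7.39, 9.08, 9.08 and 8.67 CPM in sgNT and 12.6, 6.80, 9.20, 8.54 and 8.89 CPM in sgCda tumors. Replicate 1 was the highest and replicate 2 the lowest of each group. For Egr2 the log2 fold change was 0.020 (95% CI −0.34 to 0.38, edgeR, adjusted p = 0.9996). It became −0.12 without sgCda replicate 1 and −0.048 without sgNT replicate 2.

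Nr4a1 (ENSMUSG00000023034, chromosome 15, 101254269 to 101274795, plus strand) encodes the orphan nuclear receptor NUR77, which follows antigen receptor signaling in T cells. It stood at 14.3, 9.79, 18.4, 18.3 and 19.2 CPM in sgNT tumors and at 11.4, 10.3, 22.6, 14.1 and 14.6 CPM in sgCda tumors. As for Fos, the top value belonged to sgCda replicate 3 and the lowest to sgNT replicate 2. The log2 fold change was −0.13 (95% CI −0.65 to 0.38, edgeR, adjusted p = 0.9996), and it was −0.35 without sgCda replicate 3 and −0.027 without sgCda replicate 2.

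Ier2 (ENSMUSG00000053560, chromosome 8, 84661331 to 84662852, minus strand, a single exon) was counted at 44.9, 27.2, 35.1, 39.8 and 31.9 CPM in sgNT tumors and at 36.9, 29.4, 39.1, 30.3 and 34.5 CPM in sgCda tumors. All 5 sgCda values lay inside the sgNT range. Its log2 fold change was −0.072 (95% CI −0.37 to 0.22, edgeR, adjusted p = 0.9996) and 0.021 without sgNT replicate 1.

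Dusp1 (ENSMUSG00000024190, chromosome 17, 26505590 to 26562128, minus strand) encodes a phosphatase that switches off MAP kinases and so ends the signal that induced it. It was at 46.9, 28.0, 41.6, 29.0 and 30.9 CPM in sgNT and at 29.9, 44.2, 27.7, 46.1 and 48.3 CPM in sgCda tumors. In both groups some tumors stood near 30 CPM and others above 40 CPM, 2 of 5 sgNT and 3 of 5 sgCda tumors being in the upper range. Its estimate on the log2 scale was 0.15 (95% CI −0.28 to 0.58, edgeR, adjusted p = 0.9996), 0.27 without sgNT replicate 1 and 0.067 without sgCda replicate 5.

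Across the 10 genes, 8 log2 fold changes were below 0 and 2 above, with a median of −0.097, beside a median of 0.0078 over all genes tested, of which 47.1% were below 0. The members were measured in the same tumors, so their signs are not independent. When a tumor was left out the count below 0 ran from 6 to 9, with 6 without sgNT replicate 1. With edgeR's quasi-likelihood test 0 of the 10 had an adjusted p under 0.05, where the share among all genes tested was 0%, and DESeq2 and limma-voom gave 0 too. At an unadjusted p under 0.05 there were 0 of 10 with edgeR, beside 2.50% of all genes tested (1.54% higher and 0.954% lower in sgCda tumors), 0 with limma-voom and 1 with DESeq2 (Fosb, Wald test, unadjusted p = 0.0474). Groups did not overlap for 0 of the 10 genes, beside 0.601% of all genes tested. A p that misses the threshold does not show equal levels, and the widest interval, that of Fos, ran from −53.5% to 51.1%.

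**Figure D2:**
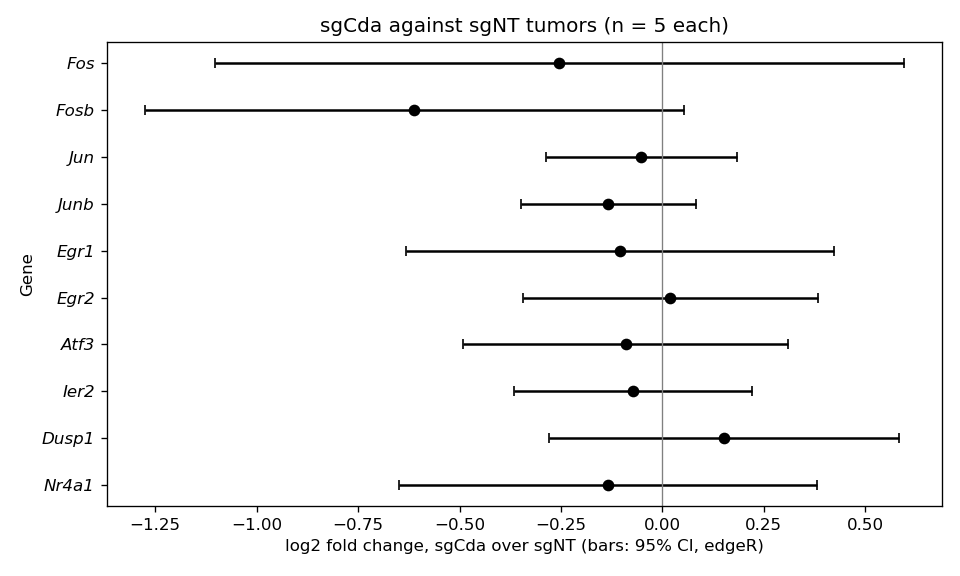
Log2 fold change of sgCda over sgNT on the x axis for each of the 10 genes on the y axis, with 95% confidence intervals from edgeR as bars (n = 5 tumors per group). All 10 intervals span 0, the estimates run from −0.61 for Fosb to 0.15 for Dusp1, and the Fos interval is the widest.

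The genes differed in how far they varied between tumors of one group. For each gene the SD of log2 CPM was taken within sgNT and within sgCda tumors and pooled. Fos had a pooled SD of 0.71, larger than in 93.8% of all genes tested, although counting error alone would give it about 0.064. Fosb (0.51, larger than in 85.5%), Egr1 (0.44, 80.9%) and Nr4a1 (0.42, 79.6%) followed. Dusp1 (0.36), Atf3 (0.32), Egr2 (0.27) and Ier2 (0.23) were also above the median gene, whose pooled SD was 0.21. Jun (0.18, larger than in 43.7%) and Junb (0.17, 38.7%), the members of highest level per length, were below it. In total 8 of 10 members varied more than the median gene, a description that had no test. Between the lowest and the highest of the 10 tumors, Fos differed 3.80-fold and Fosb 3.88-fold, against 1.59-fold for Jun and 1.41-fold for Junb.

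To see whether the same tumors were high or low for several members, the order of the tumors was compared between genes. Replicate 2 of the sgNT tumors was among the 3 lowest of 10 for 8 of the 10 members and the very lowest for 5 of them (Fos, Junb, Atf3, Ier2 and Nr4a1). Replicate 2 of the sgCda tumors was among the 3 lowest for 7 members and the lowest for 3 (Fosb, Egr1 and Egr2). At the other end, sgNT replicate 1 was among the 3 highest for 8 members. Replicate 3 of the sgCda tumors was mixed, being the highest of all for Fos and Nr4a1 and the lowest of all for Jun and Dusp1. This library also stood apart in its marker sums, with 1796 CPM of skeletal muscle markers against 1.30 to 444.2 CPM in the other 9 tumors and 499.6 CPM of T cell markers against 148.2 to 341.9 CPM. Its smooth muscle sum (Acta2, Myh11, Cnn1, Tagln and Des, 140.2 CPM) was the highest of the 10 tumors and its neutrophil sum (49.4 CPM) the lowest. The smooth and skeletal muscle sums thus peaked in the same tumor. Of the low tumors, sgCda replicate 2 had the lowest endothelial sum (65.5 CPM) and the highest adipocyte sum (383.7 CPM). The part of this tissue content in the members' values was not tested. With each member's log2 CPM scaled to unit variance and averaged, low tumors occurred in both groups (−0.93 in sgNT replicate 2 and −0.85 in sgCda replicate 2). The highest means were those of sgNT replicates 1, 3 and 4 (0.81, 0.47 and 0.38). Among sgCda tumors the highest was replicate 1 (0.17). This order of the tumors was not tested.

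**Figure D3:**
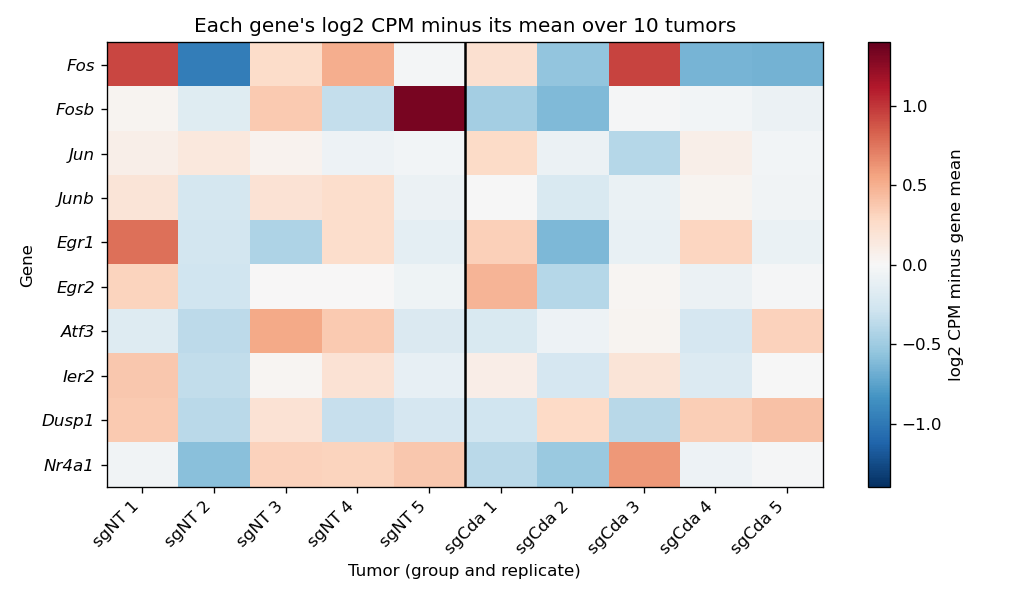
Log2 CPM of each gene (rows) in each tumor (columns, sgNT left and sgCda right of the line) minus that gene's mean over the 10 tumors, from blue (lower) to red (higher). The columns of sgNT replicate 2 and sgCda replicate 2 are mostly blue, and the column of sgNT replicate 1 is mostly red.

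Relations between members were then computed over the 10 tumors for all 45 pairs, on log2 CPM and with permutation tests (100000 resamples, two-sided, Benjamini-Hochberg adjustment over the 45 pairs). Pearson's r was positive in 32 pairs and its median was 0.19. The points share their library, so errors in scaling a library move both genes together. One pair passed an adjusted p of 0.05, namely Fos and Ier2, with r = 0.90 (permutation p = 0.000530, adjusted 0.0238) and Spearman's rho = 0.87 (permutation p = 0.00214, adjusted 0.0511). Without sgNT replicate 2 and sgCda replicate 3, the tumors farthest from the median of Fos, r was 0.88. With each group's mean subtracted it was 0.90. By Spearman's rho 0 pairs passed the adjusted threshold.

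Other pairs did not pass after adjustment. Egr2 and Ier2 had r = 0.75 (permutation p = 0.0123, adjusted 0.213; rho = 0.87, permutation p = 0.00227, adjusted 0.0511), and 0.92 without the 2 tumors farthest from the median of Egr2. For Egr1 and Egr2 r was 0.74 (permutation p = 0.0142, adjusted 0.213; rho = 0.61, permutation p = 0.0651, adjusted 0.330), and 0.51 without the 2 tumors farthest from the median of Egr1. Jun and Nr4a1 had the most negative value, r = −0.65 (permutation p = 0.0350, adjusted 0.296; rho = −0.53, permutation p = 0.124, adjusted 0.443), which became −0.32 without sgCda replicates 1 and 3. Over its 9 pairings Junb had the highest median r (0.55) and Jun the lowest (−0.12), and those of Fosb (−0.0086) and Dusp1 (0.0065) were near 0.

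**Figure D4:**
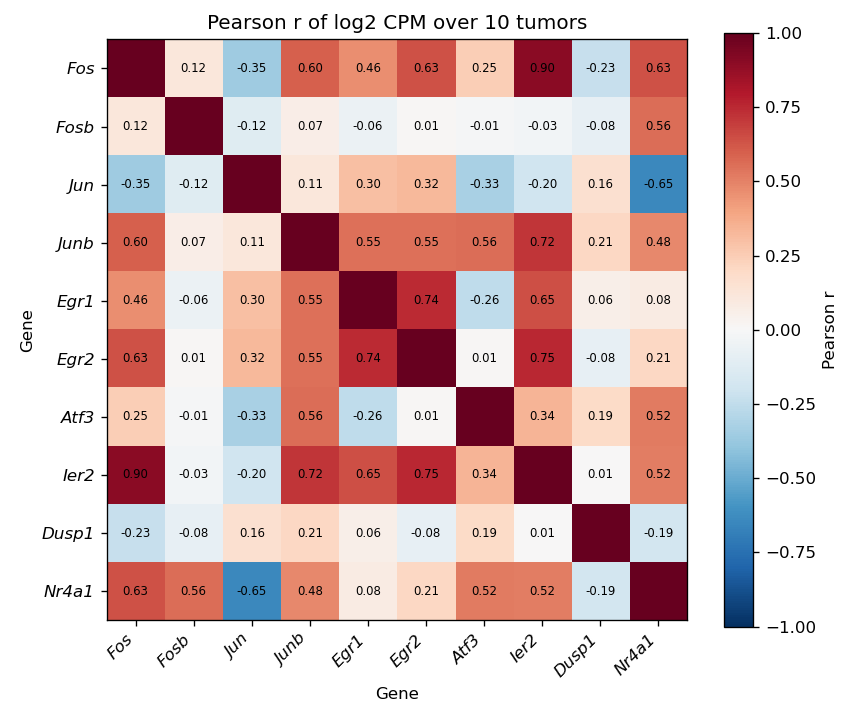
Pearson's r of log2 CPM over the 10 tumors for each pair of genes, with genes on both axes and r printed in each cell, from blue (negative) to red (positive). Fos, Junb, Egr1, Egr2 and Ier2 form a block of positive values with Fos and Ier2 at 0.90, the rows of Fosb and Dusp1 are mostly pale, and the row of Jun holds the most negative value, −0.65.

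**Figure D5:**
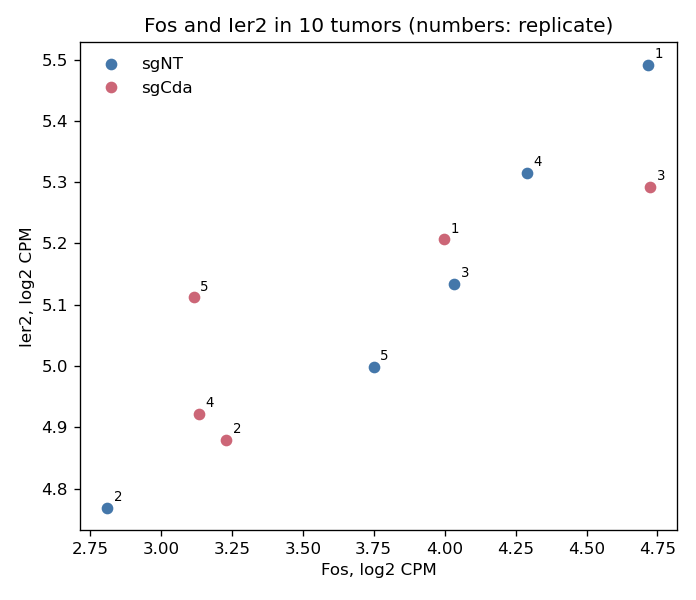
Level of Ier2 (y axis, log2 CPM) against Fos (x axis, log2 CPM) in the 10 tumors, 1 point per tumor with its replicate number, sgNT in blue and sgCda in red. Both genes are lowest in sgNT replicate 2, and tumors of both groups rise together from lower left to upper right (r = 0.90).

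Markers of other cells also varied between tumors, so 11 marker sums, the share of reads outside genes, the mitochondrial share and Cda were set against the 10 members, a family of 140 relations chosen after the data had been seen. With permutation tests 0 of 140 passed an adjusted p of 0.05 by either coefficient, and 10 had an unadjusted p under 0.05 by Pearson's r. The endothelial sum (5 of 5 markers tested, none below 1 CPM, 75.8 to 121.6 CPM in sgNT and 65.5 to 117.3 CPM in sgCda tumors) had r = 0.75 with Fos (permutation p = 0.0156, adjusted 0.627; rho = 0.76, permutation p = 0.0152, adjusted 0.532; 0.64 without the 2 tumors farthest from its median). With Nr4a1 its r was also 0.75 (permutation p = 0.0140, adjusted 0.627; rho = 0.72, permutation p = 0.0232, adjusted 0.532; 0.62 without those tumors). The smooth muscle sum (5 of 5 tested, Cnn1 below 1 CPM, 31.1 to 100.1 CPM in sgNT and 23.7 to 140.2 CPM in sgCda tumors) had r = 0.72 with Fos (permutation p = 0.0201, adjusted 0.627; rho = 0.71, permutation p = 0.0277, adjusted 0.532; 0.56 without the 2 tumors farthest from its median). For Jun and that sum r was −0.66 (permutation p = 0.0403, adjusted 0.627; rho = −0.52, permutation p = 0.133, adjusted 0.737; −0.43 without them). With Nr4a1 the smooth muscle sum had r = 0.69 (permutation p = 0.0262, adjusted 0.627; rho = 0.76, permutation p = 0.0146, adjusted 0.532; 0.75 without them), and the endothelial sum with Ier2 had 0.64 (permutation p = 0.0470, adjusted 0.652; rho = 0.78, permutation p = 0.0104, adjusted 0.532; 0.51 without the 2 tumors farthest from its median).

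The other 4 of the 10 relations involved neither the endothelial nor the smooth muscle sum. The neutrophil sum (5 of 5 tested, Retnlg below 1 CPM, 52.0 to 98.1 CPM in sgNT and 49.4 to 121.8 CPM in sgCda tumors) had r = 0.67 with Dusp1 (permutation p = 0.0351, adjusted 0.627; rho = 0.61, permutation p = 0.0686, adjusted 0.612; 0.47 without sgNT replicate 4 and sgCda replicate 3). With Jun its r of 0.66 (permutation p = 0.0397, adjusted 0.627; rho = 0.43, permutation p = 0.219, adjusted 0.737) was 0.066 without those tumors and so rested on them. Atf3 had r = 0.68 with the sum of epithelial cancer cell markers (permutation p = 0.0326, adjusted 0.627; rho = 0.49, permutation p = 0.152, adjusted 0.737; 0.42 without the 2 tumors farthest from its median). For Atf3 and Cda r was 0.66 (permutation p = 0.0393, adjusted 0.627; rho = 0.76, permutation p = 0.0148, adjusted 0.532; 0.60 without the 2 tumors farthest from the median of Cda). The part of cell content in the spread of these genes was not tested.

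The remaining genes of the response were examined in lists. Of 17 further AP-1 and ATF genes 16 were tested (Atf7 was not), with 8 log2 fold changes above and 8 below 0 and a median of −0.014. Their range went from −0.30 for Batf2, an interferon-induced factor (edgeR, adjusted p = 0.9996), to 0.43 for Batf3, which conventional type 1 dendritic cells require (edgeR, unadjusted p = 0.0528, adjusted p = 0.9996). Of 40 further immediate early genes 39 were tested (Egr4 was not), with 24 above and 15 below 0 and a median of 0.035. They ran from −0.32 for Arc, a synaptic gene (edgeR, adjusted p = 0.9996), to 0.66 for Areg, the EGF receptor ligand amphiregulin (edgeR, adjusted p = 0.9996). Areg stood at 1.74 to 4.96 CPM in sgNT and at 1.82 to 6.93 CPM in sgCda tumors, so the groups overlapped. In these lists and the 3 below, 0 genes passed an adjusted p of 0.05 in either direction and 0 an unadjusted p under 0.05 with edgeR, against 2.50% of all genes tested, and DESeq2 gave 3 at the unadjusted level.

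Feedback inhibitors of the MAP kinase pathway (14 of 14 tested) had a median log2 fold change of −0.0051, 7 being above and 7 below 0, from −0.17 for the RAS pathway inhibitor Spry4 to 0.12 for the phosphatase Dusp8. The upstream kinases and the factors SRF, ELK, MRTF and CREB (23 of 23 tested) had a median of −0.041, from −0.14 for Srf to 0.075 for the JNK gene Mapk8. In this list the groups did not overlap for 1 gene, the only 1 of the 106 genes tested over all the lists, beside 0.601% of all genes tested. It was Elk3, an SRF partner, named here after its values were seen, with a mean of 130.7 CPM (SD 1.29) among sgNT and of 125.3 CPM (SD 4.02) among sgCda tumors (log2 fold change −0.061, edgeR, adjusted p = 0.9996). Heat shock genes (14 of 14 tested) had a median of −0.019, from −0.42 for the inducible chaperone Hspa1a to 0.54 for the small chaperone Hspb1. Both were low. Hspa1a had 0.829 to 2.32 CPM in sgNT and 0.729 to 1.73 CPM in sgCda tumors, and Hspb1 had 0.284 to 1.51 CPM in sgNT and 0.744 to 3.30 CPM in sgCda tumors. The related gene Hspa1b of this list stood higher, at a mean of 21.2 CPM (SD 3.32) in sgNT and 18.5 CPM (SD 3.31) in sgCda tumors. The low Hspa1a counts thus do not give the level of inducible chaperones as a whole.

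Finally, genes whose pattern over the 10 tumors was most like that of the members were sought. Each member's log2 CPM was scaled to unit variance and averaged, and r with this mean profile was computed for 13259 other genes with a mean log2 CPM of at least 0. The members did not share in this profile equally. With the mean of the other members, r was 0.84 for Junb, 0.79 for Ier2, 0.67 for Egr2, 0.64 for Fos, 0.52 for Egr1 and 0.44 for Nr4a1. It was 0.25 for Atf3, 0.086 for Fosb, 0.0091 for Dusp1 and −0.14 for Jun. The 5 highest were Socs3 (r = 0.89), the predicted gene Gm11110 (0.85), Ccn1 (0.81), Hlx (0.81) and Egr3 (0.80). Socs3 encodes a cytokine-induced inhibitor of JAK-STAT signaling, Ccn1 a matricellular protein, Hlx a homeobox factor and Egr3 a relative of EGR1. Ccn1 stood at 45.8, 16.0, 34.1, 32.9 and 25.3 CPM in sgNT and at 28.7, 17.5, 47.0, 19.8 and 24.0 CPM in sgCda tumors. As for Fos, sgNT replicate 2 was its lowest tumor and sgCda replicate 3 its highest. Socs3 stood at 154.9, 111.0, 141.5, 144.3 and 132.3 CPM in sgNT and at 130.0, 113.1, 116.1, 116.6 and 124.7 CPM in sgCda tumors. Its log2 fold change was −0.19 (SE 0.086, edgeR, unadjusted p = 0.0515, adjusted p = 0.9996), with 4 sgNT tumors above all 5 sgCda tumors and sgNT replicate 2 below them. These 5 were picked as the most extreme of many genes, so their r is a description.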

How the data were processed

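RNA-seq of 10 tumors (5 sgNT, 5 sgCda) was analysed from 1 table. The authors isolated polyadenylated RNA, made stranded libraries, removed adapters, mapped reads to GRCm38 (mm10) with TopHat and Bowtie and counted reads per Ensembl gene with HTSeq (version 07.2 in the submitters' processing notes); the deposited values are these raw counts. The strand setting and annotation release are not given in the sources used here. The 5 HTSeq summary lines were left out of library sizes and tests, and 32608 of 37417 identifiers matched a symbol. Groups and replicate numbers were taken from the titles.

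Genes were filtered with filterByExpr (minimum count 10, minimum total 15), scaled by TMM and tested in R 4.3.3 by the quasi-likelihood test of edgeR 4.0.16 over all tumors, with no covariate and Benjamini-Hochberg adjustment over 15299 genes. CPM values use TMM-scaled library sizes and log2 CPM a prior count of 2. Exon lengths, positions and exon overlaps came from GENCODE M21 (GRCm38) and promoter sequences from RefSeq (GRCm38.p6). Permutation tests were run with numpy 2.4.6. Alternatives were DESeq2 size factors and Wald test (DESeq2 1.42.0), library totals, no filter on low counts, at least 10 counts in every tumor, voom with limma 3.58.1, a block on the replicate number, each tumor left out in turn and, for the spread, a prior count of 0.5. The members and the gene lists were chosen with earlier results of these data known. Named by rule were all members, in each list the genes with the lowest and highest log2 fold change and any with an unadjusted p under 0.05, the 5 genes with the profile most like the members, and Cda.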

Additional observations from a re-analysis of the deposited data

Results flagged for a closer look

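Values far from the rest of their group of 5 tumors were sought with Dixon's gap test at the 95% level, which chance passes in about 1 of 20 groups. Among the members 1 of 20 groups passed on the CPM scale, that of Fosb in sgNT tumors, where replicate 5 stood at 14.5 CPM against 4.52 to 7.38 CPM in the other 4. On the log2 scale 0 of 20 passed. Among pathway genes 1 of 40 groups passed, that of Hspb1 in sgCda tumors, with 3.30 CPM in replicate 3 against 0.744 to 1.36 CPM.

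Of 32 groups of library and marker measures 6 passed. In sgCda replicate 3 the skeletal muscle sum was 1796 CPM against 1.30 to 434.7 CPM in the other sgCda tumors, and the neutrophil sum was 49.4 CPM against 110.6 to 121.8 CPM. The mitochondrial share was 5.82% in sgCda replicate 4 against 3.48% to 3.81%, and the adipocyte sum was 383.7 CPM in sgCda replicate 2 against 18.5 to 91.4 CPM. In the sgNT group, the T cell sum was 341.9 CPM in replicate 3 against 209.3 to 235.2 CPM, and the keratinocyte sum, of whose 5 markers 1 passed the filter on low counts, was 24.1 CPM in replicate 4 against 4.28 to 5.30 CPM. Without sgCda replicate 3, the log2 fold change was −0.63 for Fos, −0.35 for Nr4a1 and 0.029 for Jun. The part of these measures in the members' values was not tested.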

How the results depend on the processing

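Under all 17 alternatives 0 genes, 0 of the 10 members and 0 of the listed pathway genes had an adjusted p under 0.05 (smallest 0.779 over all genes and 0.819 among members). The count at an unadjusted p under 0.05 was 382 of all genes, 830 without a filter on low counts, where more genes were tested (26302), and 280 to 747 when a tumor was left out, 747 being without sgCda replicate 3. Among members it ran from 0 to 2, and among pathway genes from 0 to 3. Fos, Fosb, Junb, Dusp1 and Nr4a1 kept their direction in all 17 alternatives. The others changed sign in 7 of 170 member values, each time when 1 tumor was left out: Jun (−0.13 to 0.029), Egr1 (−0.21 to 0.12), Egr2 (−0.12 to 0.11), Atf3 (−0.19 to 0.053) and Ier2 (−0.16 to 0.021). Members with a spread above that of the median gene numbered 6 without a filter on low counts and 7 to 9 when a tumor was left out, against 8. Titles of both groups carry the same numbers. Over all genes tested, the deviations of same-numbered tumors from their group means had r from −0.43 to 0.34. Only 2 of 5 pairs were over 0.1, and 2 of 5 sgNT tumors matched their own number best, which does not settle whether the numbers mark pairs. The main fit had no block because the tumors were taken to come from different mice. The members' mean profile did follow the number in part. It was highest in replicate 1 of each group (0.81 in sgNT, 0.17 in sgCda) and lowest in replicate 2 (−0.93 and −0.85). Whether the numbers mark pairs was not tested. With the replicate block 0 genes passed the adjusted threshold, the unadjusted count was 325, and no member changed its direction. Among members the smallest unadjusted p with the block was 0.0727 (edgeR, Fosb). With 28051907 or more counts per tumor, the spread between tumors was the limit for these genes and not counting error.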

Other observations

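Beyond the 5 genes named for their pattern, other genes of the lists, which were chosen with earlier results known, also followed the members' mean profile. Not all members followed that profile themselves. Of the 20 highest of 13259 ranked genes, 7 belonged to these lists. All the lists together, with upstream and heat shock genes included, made up 0.799% of the ranked genes. The 7 were Socs3, Ccn1, Egr3, Ier3 (r = 0.79), the EGF receptor ligand gene Hbegf (0.79), the ERK phosphatase gene Dusp6 (0.76) and the prostaglandin synthase gene Ptgs2 (0.73). Among the first 100 were 10 further immediate early genes, 3 feedback inhibitors and 1 AP-1 or ATF gene, but 0 upstream and 0 heat shock genes. These counts were made after the data had been seen, over tumors that share their libraries, and were not tested. Hbegf was lowest in sgCda replicate 2 (17.0 CPM) and sgNT replicate 2 (19.6 CPM), against 22.0 to 34.4 CPM in the other 8 tumors, and Ier3 was lowest in the same tumors (11.3 and 9.38 CPM, against 13.6 to 21.2 CPM).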
